A study of Homo sapiens with 6 samples.

Results

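The response genes of transforming growth factor beta (TGF-beta) and bone morphogenetic proteins (BMPs) followed here were 9 genes, listed by name. These were ID1, ID2, ID3, ID4, SMAD3, SMAD6, SMAD7, INHBA and BAMBI. The list was chosen with earlier results of these data known. They are 9 of the 19775 genes that the array's single-gene probe sets name. They carried 22 of the 41097 such probe sets, of which 18 had a mean above the low-value level of 2.64 on the log2 scale. The 4 that did not were 1 of ID2 and 3 of ID4. Each of the 9 genes kept at least 1 probe set, so all 9 were among the 14428 genes tested. A gene was represented by the probe set with its highest mean.

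RNA came from A2058, an established human melanoma cell line, in 3 versions. TET2WT cells overexpressed the wild-type TET2 construct, TET2M cells overexpressed a construct that the labels call TET2M or Mut, and Mock cells were the control. TET2 oxidises the methyl group of methylated cytosine in DNA. Each version was kept for 7 days in DMEM with a glucose concentration of 4.5 g/L (high) or 1 g/L (normal), with splitting every few days, and each of the 6 combinations was hybridised to 1 array. The promoter of the constructs, the nature of the TET2M change and whether a line was 1 clone were not given in the sources used. Array medians lay between 2.96 and 3.03. The brightest TET2 probe set stood at 9.54 (high glucose) and 9.68 (normal) in the TET2WT line, 7.57 and 7.37 in the TET2M line, against 3.81 and 4.13 in the Mock line, and a dimmer set kept that order of lines. A further TET2 set did not separate the lines and lay between 5.15 and 5.41 on all arrays. Of 11 melanocyte and melanoma markers on the array, 8 lay above the low-value level, among them SOX10 at 9.38 to 9.65 and MITF at 6.30 to 6.96, while MLANA, TYR and TYRP1 lay below it.

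TGF-beta, activins and BMPs are secreted dimers that bind pairs of receptor kinases. The receptors phosphorylate SMAD proteins, SMAD2 and SMAD3 on the TGF-beta and activin side and SMAD1, SMAD5 and SMAD9 on the BMP side, which enter the nucleus with SMAD4. Among their targets are inhibitors of the pathway itself, including SMAD6, SMAD7 and BAMBI, and the ID genes, whose products bind helix-loop-helix transcription factors and keep them off DNA. In melanoma cells TGF-beta signalling is known for its part in invasion and in the loss of pigment cell features.

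The promoters of 3 members are shown, because these were the members that passed the test between TET2WT and Mock described further on. Each is the 250 bases before the annotated start, 5′ to 3′ on the gene's strand, from RefSeq on GRCh38.p14. Capitals mark letters that matched a motif.
ID3 (chr1:23559502-23559751, minus strand): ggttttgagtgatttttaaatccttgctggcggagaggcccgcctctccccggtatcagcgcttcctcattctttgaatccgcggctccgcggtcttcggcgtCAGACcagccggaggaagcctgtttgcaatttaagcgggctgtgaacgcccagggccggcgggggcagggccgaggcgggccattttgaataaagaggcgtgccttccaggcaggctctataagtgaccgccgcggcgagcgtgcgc
SMAD6 (chr15:66701986-66702235, plus strand): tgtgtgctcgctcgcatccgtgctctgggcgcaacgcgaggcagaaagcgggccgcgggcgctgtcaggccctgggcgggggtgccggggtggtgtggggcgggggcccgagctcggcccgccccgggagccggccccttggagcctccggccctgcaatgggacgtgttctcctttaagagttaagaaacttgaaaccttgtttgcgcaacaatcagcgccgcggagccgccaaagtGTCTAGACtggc
INHBA (chr7:41703091-41703340, minus strand): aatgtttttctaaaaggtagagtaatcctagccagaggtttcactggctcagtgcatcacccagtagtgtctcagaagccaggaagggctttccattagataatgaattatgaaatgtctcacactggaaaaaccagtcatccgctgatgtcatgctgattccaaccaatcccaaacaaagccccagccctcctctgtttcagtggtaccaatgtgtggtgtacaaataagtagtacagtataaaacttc
The motifs searched, on both strands, were the SMAD palindrome GTCTAGAC, the SMAD-binding letters CAGAC, and the GC-rich BMP-side letters GGCGCC, none of which contains another. The palindrome was found in 0.182% of the 35116 promoter windows searched, CAGAC in 38.0% and GGCGCC in 16.4%. SMAD6 held the palindrome, with its first base at -12 from the start, ID3 held 1 CAGAC with its first base at -147, and INHBA held none of the 3 in this window. All 9 members were found, in 15 windows, since SMAD3 had 5 starts and SMAD7 had 3. ID1 and ID2 held none of the 3 motifs, ID4 held 1 CAGAC, and BAMBI held 2 CAGAC and 3 GGCGCC. SMAD3 held 2 GGCGCC before 1 start, 1 CAGAC before another and 3 CAGAC before a further start. SMAD7 held 1 CAGAC before 1 start and 2 CAGAC before another. The remaining windows of these genes held none. A match is a description of the letters, not a binding site.

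The first question was whether the 9 genes differed between the overexpressing lines and Mock. INHBA, ID3 and SMAD6, which encode a ligand subunit, a helix-loop-helix inhibitor and an inhibitory SMAD, fell in TET2WT relative to Mock, by 1.83-fold, 2.19-fold and 2.26-fold. These passed limma's test, beside 4.21% of all genes in either direction. The SMAD6 fall was that of its main probe set. With the mean of its 4 sets the difference was -0.32 and did not pass. ID1 and BAMBI were also lower on both TET2WT arrays than on both Mock arrays, as were 23.8% of all genes, without passing the test. In TET2M the 9 genes all had negative mean differences from Mock, as had 55.0% of all genes. SMAD7 and BAMBI were lower there at normal glucose only. In that comparison 0 of the 9 passed, beside 0.0970% of all genes. Values below are log2 expression, given for each array before any difference. Line differences are means over both glucose concentrations from limma's additive fit to all 6 arrays, and adjusted p-values are Benjamini-Hochberg over 14428 genes. With 1 array for each combination, p-values rest on how far line differences varied between concentrations, and glucose differences between lines. Technical scatter of single arrays and glucose responses that differ between lines both enter that error and cannot be told apart. The fit also draws each gene's spread towards a value pooled over all genes. All comparisons of lines share arrays.

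**Figure D1:**
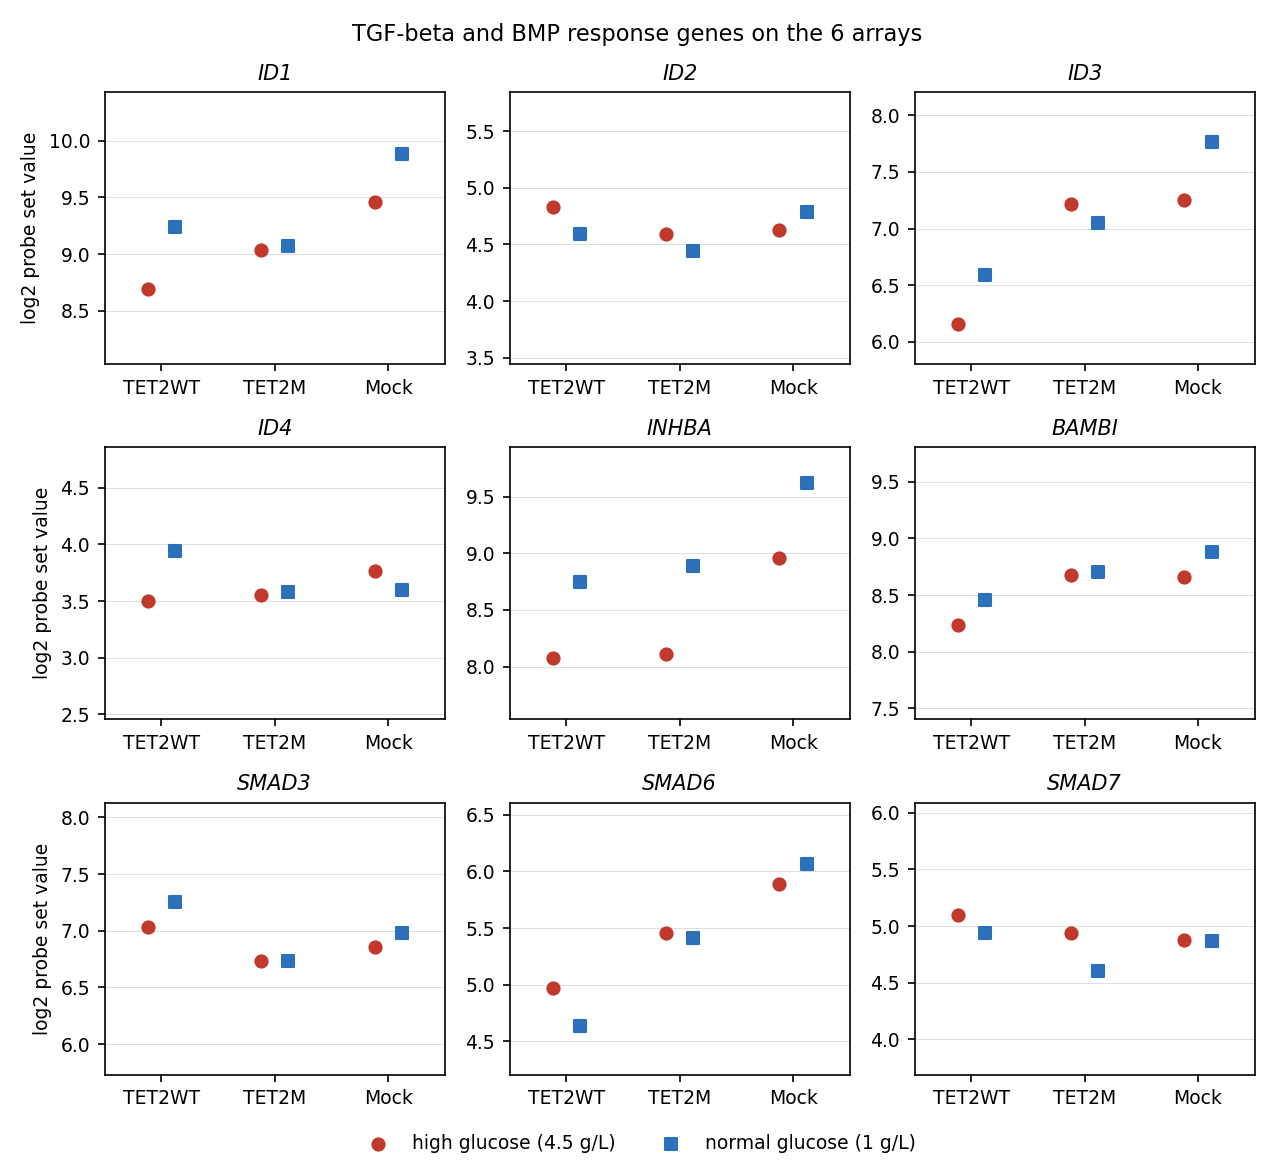
Deposited log2 value of each of the 9 genes (vertical axis) on each of the 6 arrays, by line (horizontal axis: TET2WT, TET2M, Mock) and glucose concentration (colour), 1 point for each array. INHBA lies lower at high than at normal glucose in all 3 lines, and ID3 and SMAD6 lie lower on both TET2WT arrays than on every other array.

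INHBA encodes the beta A subunit of activin A and inhibin A. Its main probe set read 8.08 (high glucose) and 8.75 (normal) in the TET2WT line, 8.11 and 8.89 in the TET2M line, against 8.96 and 9.62 in the Mock line. Both overexpressing lines lay below both Mock arrays, and in every line the high-glucose array was the lower. The difference TET2WT minus Mock was -0.88 ± 0.090 (SE; 95% interval -1.09 to -0.66), with a limma adjusted p of 0.00867. TET2M minus Mock was close to it in size, -0.79 ± 0.090 (-1.01 to -0.57), but its limma adjusted p of 0.0726 did not pass. TET2WT minus TET2M was -0.085 ± 0.090 with an interval of -0.30 to 0.13, which includes 0.

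A further INHBA probe set, 210511_s_at, read 6.94 (high glucose) and 7.94 (normal) in TET2WT, 7.34 and 8.05 in TET2M, against 7.86 and 8.65 in the Mock line. The order of the arrays was like that of the first set, except that the normal-glucose arrays of TET2WT and TET2M lay above the high-glucose array of Mock. When each of 27041 probe sets was tested on its own, its TET2WT minus Mock difference of -0.82 ± 0.11 passed with a limma adjusted p of 0.0227. A dim set, 204926_at, read 1.96 (high glucose) and 2.77 (normal) in TET2WT, 2.71 and 2.64 in TET2M, and 2.96 and 3.17 in Mock, and its difference of -0.70 did not pass (limma adjusted p 0.154). On that set the 4 arrays of the overexpressing lines also lay below both Mock arrays.

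BAMBI encodes a membrane protein built like a TGF-beta receptor without a kinase, which blocks signalling. It read 8.24 (high glucose) and 8.46 (normal) in the TET2WT line, 8.68 and 8.70 in the TET2M line, against 8.66 and 8.88 in the Mock line. The TET2WT arrays were below all 4 others, and the TET2M and Mock arrays overlapped. TET2WT minus Mock was -0.42 ± 0.097 (limma adjusted p 0.0791), TET2WT minus TET2M was -0.34 (0.15) and TET2M minus Mock was -0.080 (0.843), so none passed.

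SMAD3 carries the signal of TGF-beta and activin receptors to the nucleus. Its main probe set read 7.03 (high glucose) and 7.25 (normal) in the TET2WT line, 6.73 on both TET2M arrays, against 6.86 and 6.98 in the Mock line. SMAD3 was the member for which TET2WT stood highest: both its arrays lay above the other 4, and both TET2M arrays lay lowest. The difference TET2WT minus TET2M was 0.41 ± 0.096 (limma adjusted p 0.0964), and TET2WT minus Mock was 0.22 ± 0.096 (0.277). A separate set, 205398_s_at, kept TET2WT above the others at 6.33 (high glucose) and 6.54 (normal), against 5.83 and 6.02 in TET2M and 6.12 and 6.18 in Mock. On 205397_x_at TET2WT read 4.25 (high glucose) and 4.17 (normal), TET2M 3.73 and 3.77, and Mock 3.68 and 4.20, so TET2WT and Mock overlapped. The TET2WT minus TET2M difference of 205398_s_at, 0.51 ± 0.10, did not pass either (limma adjusted p 0.0716).

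SMAD6 and SMAD7 are inhibitory SMADs, SMAD6 acting mainly on BMP signalling and SMAD7 on both branches. SMAD6 read 4.97 (high glucose) and 4.64 (normal) in the TET2WT line, 5.46 and 5.41 in the TET2M line, against 5.89 and 6.07 in the Mock line. The lines did not overlap, with TET2WT lowest, TET2M between and Mock highest. TET2WT minus Mock was -1.18 ± 0.13 (95% interval -1.51 to -0.84; limma adjusted p 0.0114). TET2WT minus TET2M was -0.63 ± 0.13 (0.0753) and TET2M minus Mock was -0.55 ± 0.13 (0.373), and neither passed.

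The SMAD6 difference was that of the main probe set, 207069_s_at. The set 209886_s_at read 3.88 (high glucose) and 3.63 (normal) in TET2WT, 3.87 and 3.82 in TET2M, and 3.85 and 3.88 in Mock, and the lines overlapped. The sets 209887_at and 213565_s_at stayed between 2.72 and 3.32, near the low-value level, and on 209887_at TET2WT at 3.04 and 3.06 lay below Mock at 3.12 and 3.32. On 213565_s_at TET2WT, at 3.01 and 3.18, overlapped Mock, at 2.72 and 3.12, and its mean was higher. With the mean of the 4 sets in place of the set with the highest mean, TET2WT minus Mock was -0.32 and no longer passed. SMAD7 read 5.10 (high glucose) and 4.94 (normal) in the TET2WT line, 4.94 and 4.60 in the TET2M line, against 4.88 and 4.87 in the Mock line, so both TET2WT arrays lay above both Mock arrays, with limma adjusted p of at least 0.311 in all 3 line comparisons.

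**Figure D2:**
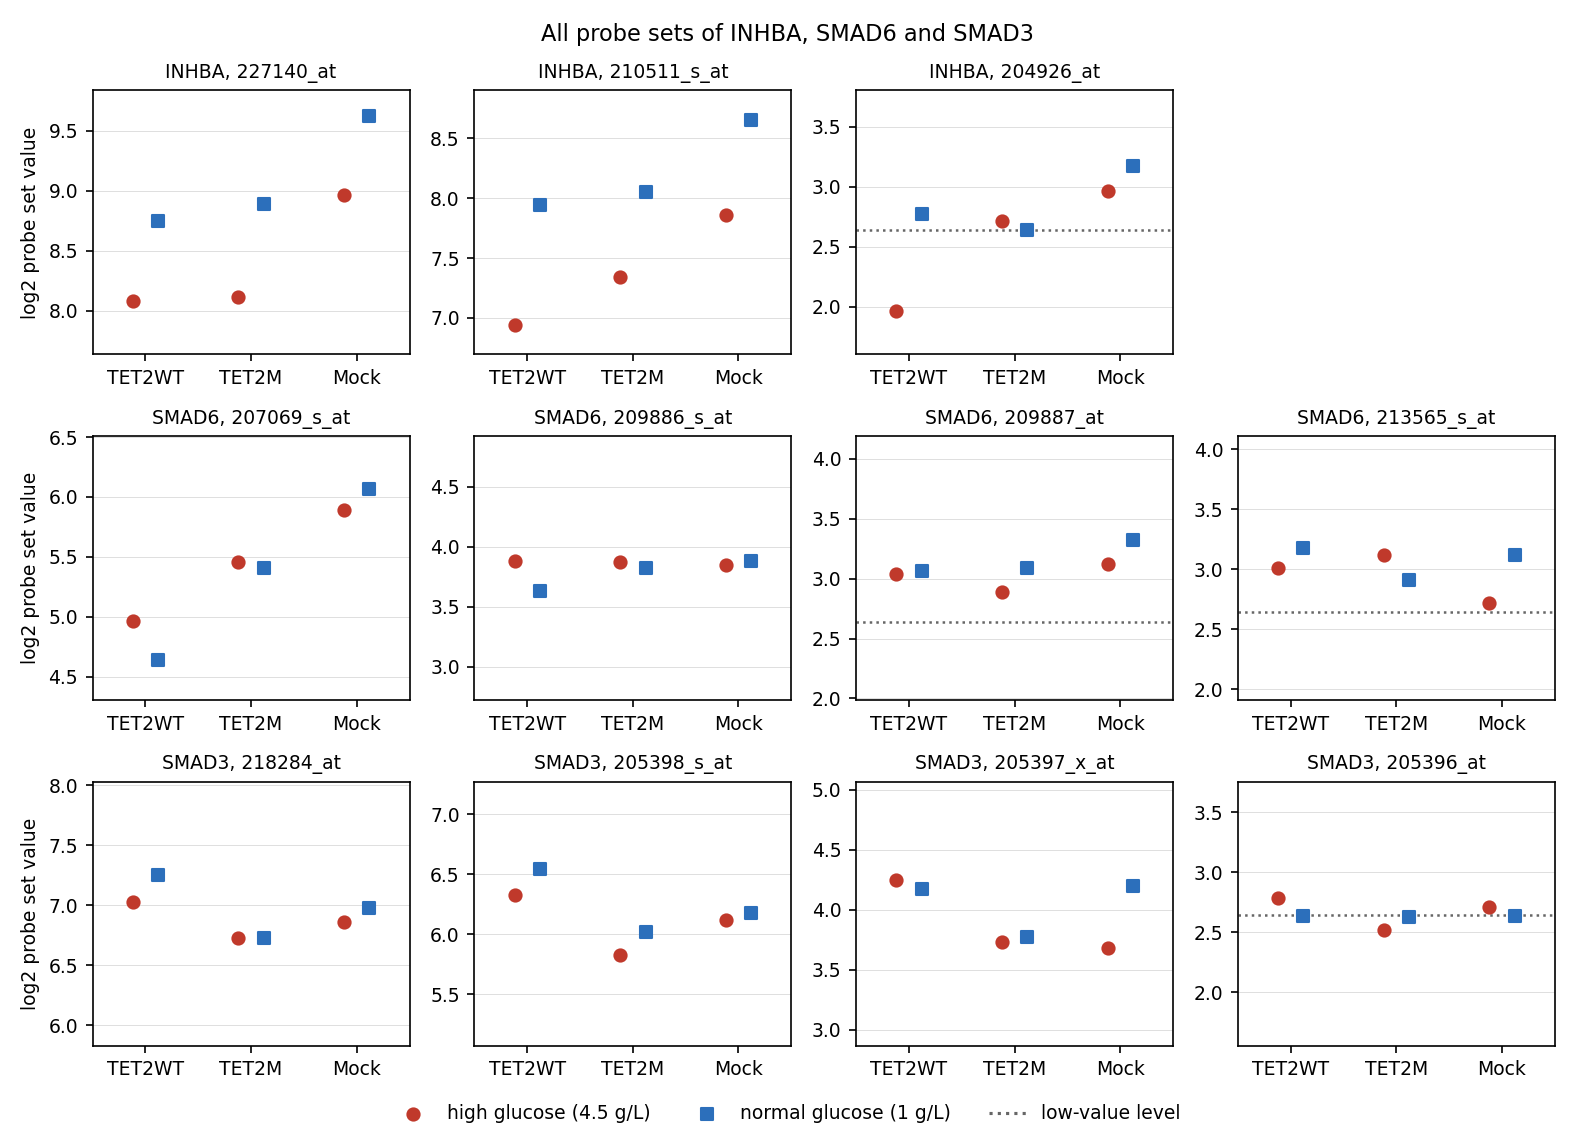
Log2 value (vertical axis) of every single-gene probe set of INHBA, SMAD6 and SMAD3 by line (horizontal axis: TET2WT, TET2M, Mock) and glucose concentration (colour), 1 panel for each probe set and 1 point for each array, with the low-value level dotted where it falls in the panel. The brighter INHBA sets show the same order of lines and glucose within a line, the lines are far apart on 207069_s_at alone among the 4 SMAD6 sets, and the brighter SMAD3 sets have TET2WT on top.

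The ID genes encode helix-loop-helix proteins without a DNA-binding region and are among the best known BMP targets. ID3 read 6.16 (high glucose) and 6.59 (normal) in the TET2WT line, 7.22 and 7.05 in the TET2M line, against 7.25 and 7.76 in the Mock line. Both TET2WT arrays lay below the other 4, and TET2M lay below Mock by 0.03 at high and 0.71 at normal glucose. TET2WT minus Mock was -1.13 ± 0.17 (95% interval -1.56 to -0.70; limma adjusted p 0.0265). TET2WT minus TET2M was -0.76 ± 0.17 (0.0913) and TET2M minus Mock was -0.37 ± 0.17 (0.572). The range of ID3 over the 6 arrays, 1.60, was the widest among the 9 genes.

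ID1 read 8.69 (high glucose) and 9.24 (normal) in the TET2WT line, 9.04 and 9.07 in the TET2M line, against 9.46 and 9.88 in the Mock line. All 4 arrays of the overexpressing lines lay below both Mock arrays, while TET2WT and TET2M overlapped. TET2WT minus Mock was -0.71 ± 0.14, just short of the threshold with a limma adjusted p of 0.0529. It passed in 3 of 15 alternatives: the stricter filter (0.0381), the mean of probe sets (0.0479) and an intensity trend (0.000407). ID1 has 1 probe set, so the mean of probe sets left its own difference unchanged. The difference did not pass with quantile normalization (0.0514), cyclic loess (0.0536) or no filter (0.0546). Nor did it pass without the glucose term (0.163) or with each probe set tested (0.0684). With 1 array left out, it ranged from -0.87 to -0.54. TET2M minus Mock was -0.62 ± 0.14 (0.335). By line means, TET2M lay nearer to TET2WT for ID1 and nearer to Mock for ID3. For ID3 this held at high glucose only. At normal glucose its TET2WT minus TET2M difference was -0.46 and its TET2M minus Mock difference -0.71. No test between genes was run.

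ID2 and ID4 did not share the lower TET2WT values of ID1 and ID3. ID2 read 4.83 (high glucose) and 4.59 (normal) in the TET2WT line, 4.59 and 4.44 in the TET2M line, against 4.63 and 4.79 in the Mock line. ID4 read 3.50 (high glucose) and 3.94 (normal) in TET2WT, 3.55 and 3.58 in TET2M, and 3.77 and 3.60 for Mock. For both genes the TET2WT arrays overlapped those of Mock. TET2WT minus Mock was 0 ± 0.12 for ID2 and 0.035 for ID4, with limma adjusted p of 1 and 0.928. The second ID4 set above the low-value level, 209291_at, lay between 2.61 and 3.01, and the 3 other ID4 sets between 1.76 and 2.49. A probe set that names both ID2 and its pseudogene ID2B was not used, since its value cannot be given to 1 gene.

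**Figure D3:**
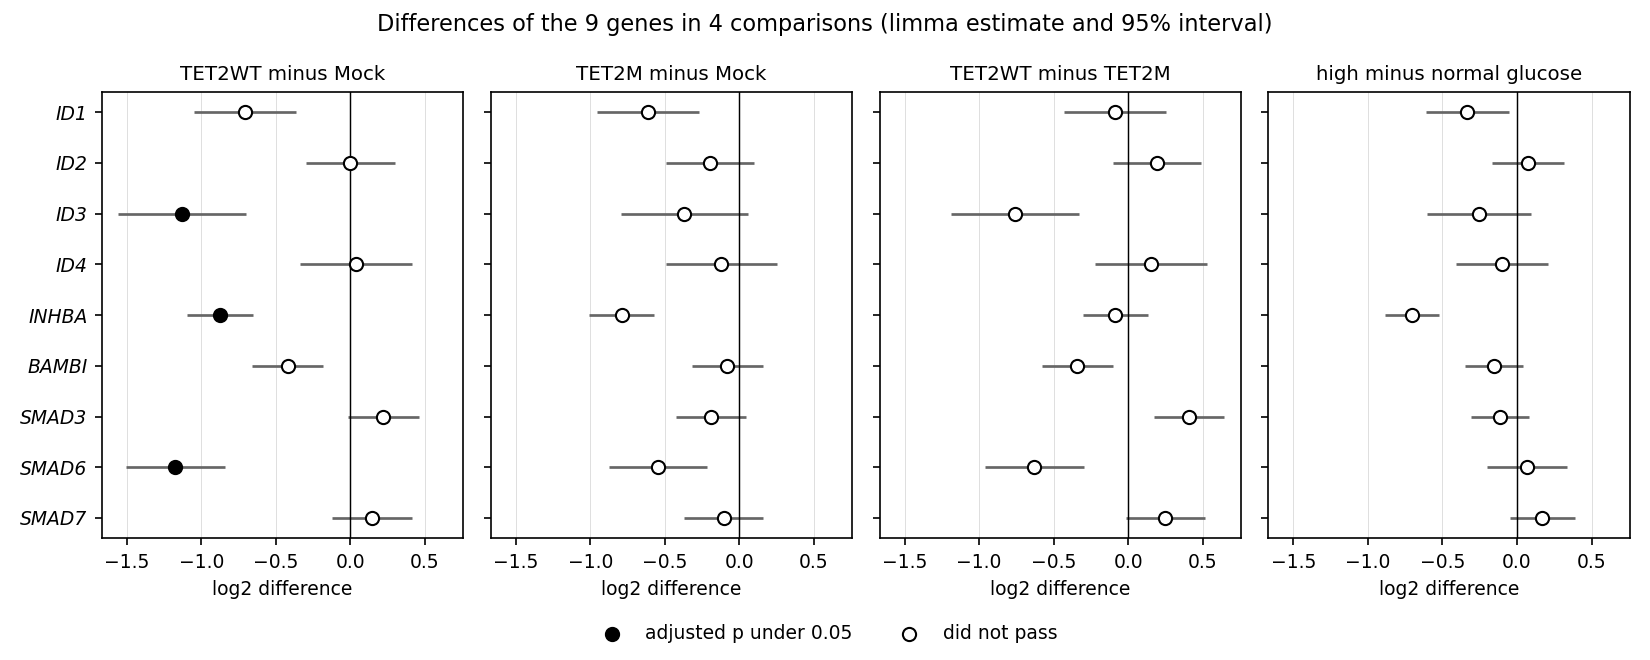
Log2 differences of the 9 genes between lines (TET2WT minus Mock, TET2M minus Mock, TET2WT minus TET2M) and between high and normal glucose, as points with 95% intervals from limma's fit to 6 arrays. Filled points passed an adjusted p of 0.05, which INHBA, SMAD6 and ID3 did in TET2WT against Mock and no member did in the other 3 comparisons.

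Counted together, 3 of the 9 genes passed limma's test in TET2WT against Mock, all lower, where 4.21% of the 14428 genes passed in either direction and 2.20% passed as lower. Among these, SMAD6 passed on its main probe set and not with the mean of its sets. An unadjusted p under 0.05 was found for 5 of the 9 and for 20.2% of all genes. The median difference of the 9 was -0.42, against -0.010 over all genes tested. Both TET2WT arrays lay below both Mock arrays for 5 of the 9 (ID1, ID3, SMAD6, INHBA and BAMBI), which was so for 23.8% of all genes. They lay above for 2 of the 9 (SMAD3 and SMAD7), against 19.7% of all genes. In TET2M against Mock, 0 of the 9 passed in limma, 3 of them (ID1, SMAD6 and INHBA) with an unadjusted p under 0.05. Of all genes 0.0970% passed and 9.51% had an unadjusted p under 0.05. There the median was -0.20, against -0.020 over all genes. All 9 differences were negative, as were 55.0% of those over all genes. Both TET2M arrays lay below both Mock arrays for 7 of the 9, all but SMAD7 and BAMBI, against 20.2% of all genes. For 3 of these the higher TET2M array nearly met the lower Mock array: 4.59 against 4.63 for ID2, 7.22 against 7.25 for ID3 and 3.58 against 3.60 for ID4.

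In TET2WT against TET2M, 0 of the 9 passed in limma and 4 (ID3, SMAD3, SMAD6 and BAMBI) had an unadjusted p under 0.05, where 3.30% of all genes passed and 17.6% had an unadjusted p under 0.05. ID3, SMAD6 and BAMBI were lower on both TET2WT arrays, without overlap, as were 19.9% of all genes. SMAD3 was higher on both, as were 21.2% of all genes. The median of the 9 was -0.085, against 0 over all genes.

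The calls in TET2WT against Mock needed all 6 arrays, and so did nearly all of the calls over all genes. With any 1 of them left out, 1 residual degree of freedom and 1 array of a line are left, so only the differences are given. INHBA then ranged between -0.91 and -0.84, ID3 between -1.32 and -0.94 and SMAD6 between -1.37 and -0.98. Among the melanocyte and melanoma markers above the low-value level, MITF, CSPG4 and PAX3 were lower on both TET2WT arrays than on both Mock arrays. The others above it overlapped between these lines. MITF read 6.40 (high glucose) and 6.30 (normal) in TET2WT, against 6.96 and 6.93 in Mock. Among the markers of other cell types above the low-value level, KRT14, LUM and LYZ were lower on both TET2WT arrays than on both Mock arrays. PDGFRB (a fibroblast marker), CD3E (blood), PECAM1 and VWF (endothelial) were higher on both TET2WT arrays than on both Mock arrays. PDGFRB read 3.78 (high glucose) and 3.94 (normal) in TET2WT, against 3.67 and 3.74 in Mock. KRT14 read 4.55 (high glucose) and 3.89 (normal) in TET2WT, against 6.86 and 6.38 in Mock. LUM read 3.74 and 3.11 in TET2WT, against 4.63 and 4.34 in Mock, and LYZ 5.64 and 5.39, against 6.35 and 6.21. The keratinocyte sum, 24.78 and 23.11 in TET2WT against 26.06 and 26.60 in Mock, differed through KRT14, since KRT5, KRT1 and KRT10 overlapped between these lines and CDH1 and IVL were below the low-value level. The sums of the fibroblast and blood cell lists overlapped, and COL3A1 and PTPRC were below the low-value level. The part of any of these markers in the members' differences was not tested. In RNA from whole cultures, fewer cells expressing a gene and less RNA in each cell cannot be told apart.

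The second question was whether glucose moved these genes. INHBA was lower at high than at normal glucose in all 3 lines, by 1.63-fold on average. The differences of ID1, BAMBI and SMAD7 also kept 1 sign, negative for ID1 and BAMBI and positive for SMAD7. Each of these was close to 0 in 1 line: -0.03 for ID1 and -0.02 for BAMBI in TET2M, and 0.01 for SMAD7 in Mock. None of the 9 passed the test, in which 1 gene of 14428 (0.00693%) passed. For INHBA the difference high minus normal was -0.67 in TET2WT, -0.78 in TET2M and -0.66 in Mock. Over the 3 lines it was -0.70 ± 0.073 (95% interval -0.88 to -0.52; limma adjusted p 0.0783). INHBA was the member among 12 genes (0.0832% of those tested) that were at least 1.5-fold lower at high glucose in each line. Its set 210511_s_at gave -1.0 in TET2WT, -0.71 in TET2M and -0.79 in Mock, and -0.83 ± 0.091 over the lines (limma adjusted p 0.0909). The dim set 204926_at gave -0.81 in TET2WT, 0.07 in TET2M and -0.21 in Mock, so it did not share the direction in TET2M.

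ID1 had glucose differences of -0.55 in TET2WT, -0.03 in TET2M and -0.42 in Mock, with a mean of -0.33 ± 0.11 (limma adjusted p 0.271). The difference in TET2M was small beside the others. SMAD7 was higher at high glucose, by 0.16 in TET2WT, 0.34 in TET2M and 0.01 in Mock, with a mean of 0.17 ± 0.089 (0.413). BAMBI differed by -0.22 in TET2WT, -0.02 in TET2M and -0.22 in Mock, with a mean of -0.15 (0.411). The remaining 5 genes had mean differences between -0.26 (ID3) and 0.077 (ID2), with limma adjusted p of at least 0.438. INHBA and ID1, 2 of the 9, had an unadjusted p under 0.05, as had 15.4% of all genes. The ACTB 3′ minus 5′ difference, a measure of RNA breakdown, was also higher at high glucose in each line, at 2.06 against 1.90 in TET2WT, 1.93 against 1.65 in TET2M and 2.02 against 1.94 in Mock, and its part in the glucose differences was not tested. The GAPDH difference did not share this order, at 0.35 against 0.25 in TET2WT, 0.28 at both concentrations in TET2M and 0.29 against 0.32 in Mock.

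A further question was whether TET2WT cells responded to glucose differently from the other lines. The glucose response of TET2WT minus the mean response of TET2M and Mock passed in limma for 0 of the 9 members and for 0 of 14428 genes (0%), with 1325 genes (9.18%) at an unadjusted p under 0.05. ID4 was the member among these, at -0.51 (unadjusted p 0.0444, adjusted p 0.531). For INHBA the difference between the responses was 0.050 (adjusted p 0.886). SMAD6 gave 0.40 (0.539), ID1 -0.33 (0.64) and ID3 -0.26 (0.813). This fit has 1 residual degree of freedom.

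Other genes of the pathway were followed as 8 lists by role, 114 genes in all, of which 92 were tested. In TET2WT against Mock 6 of the 92 rose and 7 fell, 14.1% of those tested beside the 4.21% of all genes, with a median difference of -0.043. In TET2WT against TET2M 8 were higher and 2 lower (10.9%, beside 3.30%). In TET2M against Mock 0 passed in limma and 18 had an unadjusted p under 0.05, beside 9.51% of all genes. For glucose 0 passed in limma and 24 had an unadjusted p under 0.05, beside 15.4% of all genes.

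**Figure D4:**
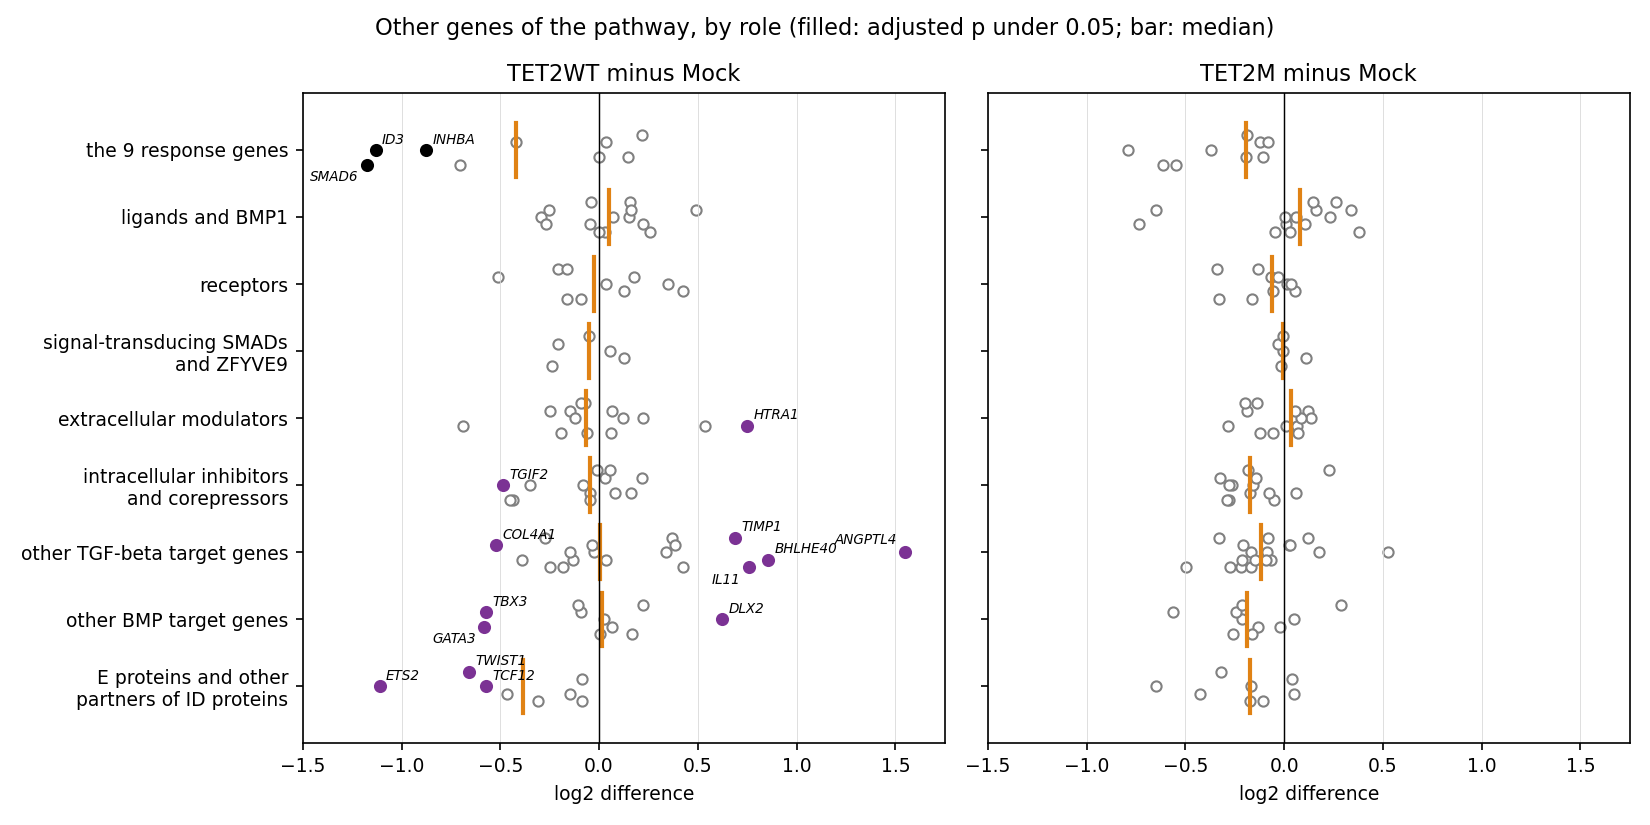
Log2 differences (horizontal axis) of the 9 response genes and of the other tested genes of the pathway by role (vertical axis), TET2WT minus Mock on the left and TET2M minus Mock on the right. Points are genes, filled where limma's adjusted p was under 0.05, and bars are medians: filled points lie on both sides of 0 for TET2WT, and TET2M has none.

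The list of ligands held 14 tested genes, 1 of them the protease BMP1, and that of signal-transducing SMADs held 5, 1 of them ZFYVE9, which anchors SMADs at the receptor. None of these nor of the 10 receptors passed limma's test in any line comparison. In TET2WT against Mock 1 ligand, 3 receptors and 0 of the SMAD list had an unadjusted p under 0.05, beside 20.2% of all genes. In TET2M against Mock 4 ligands, 2 receptors and 0 of the SMAD list had one, beside 9.51% of all genes. For TET2WT against TET2M it was 5 ligands, 3 receptors and 0 of the SMAD list, beside 17.6% of all genes. Apart from INHBA, the genes that passed were modulators, inhibitors, targets and partners of ID proteins. Among 14 extracellular modulators HTRA1, a secreted protease, rose in TET2WT. It read 6.98 (high glucose) and 7.74 (normal) in the TET2WT line, 5.95 and 6.70 in the TET2M line, against 6.34 and 6.88 in the Mock line, a TET2WT minus Mock difference of 0.75 ± 0.099 (limma adjusted p 0.0174). Its glucose difference was negative in each line, with a mean of -0.68 ± 0.081 (0.0783), like that of INHBA. Among 13 intracellular inhibitors and corepressors TGIF2, a corepressor, fell by 0.49 on the log2 scale in TET2WT against Mock (limma adjusted p 0.0422).

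Of 18 other TGF-beta targets, 4 rose and 1 fell in TET2WT against Mock (27.8%, beside 4.21% of all genes). ANGPTL4, a secreted regulator of lipoprotein lipase, had the largest difference of these, 1.55 ± 0.17 (limma adjusted p 0.0102). It read 6.68 (high glucose) and 6.90 (normal) in TET2WT, 5.95 and 5.58 in TET2M, and 5.46 and 5.02 in Mock, with no overlap between lines. BHLHE40, a helix-loop-helix repressor, differed by 0.86 (0.00912), the cytokine IL11 by 0.76 (0.0173) and the metalloproteinase inhibitor TIMP1 by 0.69 (0.0142). COL4A1, a basement membrane collagen, fell by 0.52 on the log2 scale (limma adjusted p 0.0362). The 4 that rose went the opposite way to ID3, SMAD6 and INHBA.

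Of 10 other BMP targets, DLX2 rose by 0.63 (limma adjusted p 0.0431), while GATA3 at -0.58 (0.0229) and TBX3 at -0.57 (0.0496) fell. These 3, 30% of those tested beside 4.21% of all genes, are transcription factors of development. The 8 E proteins and other partners of ID proteins all had negative TET2WT minus Mock differences, as had 52.3% of all genes. Their median was -0.39, against -0.010 over all genes, and 3 passed (37.5%, beside 4.21% of all genes). ETS2, an ETS-family factor, read 5.22 (high glucose) and 4.90 (normal) in TET2WT, 5.44 and 5.60 in TET2M, and 6.22 and 6.12 in Mock, a difference of -1.11 ± 0.13 (limma adjusted p 0.0122). The helix-loop-helix factors TWIST1, at -0.66 (0.0443), and TCF12, at -0.57 (0.0435), fell too.

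In TET2WT against TET2M the genes that passed were again modulators and targets, 6 of the 18 TGF-beta targets being higher. In either direction 38.9% of these 18 passed, beside 3.30% of all genes. IL11 differed by 1.26 (limma adjusted p 0.00371), HTRA1 by 1.04 (0.00714), ANGPTL4 by 1.03 (0.0388) and BHLHE40 by 1.00 (0.00596). DLX2 at 0.84 (0.0199) was higher as well. COL4A1 at -0.55 (0.0358) and GATA3 at -0.56 (0.0301) were the 2 that were lower.

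The genes whose pattern over the 6 arrays was most like that of ID3 were MMP1 (Pearson r 0.99), ANK3 (0.98), LINC00460 (0.97), CCL20 (0.96) and FABP6 (0.96), of 580 genes with a range of at least 1. MMP1, an interstitial collagenase, read 2.16 (high glucose) and 2.81 (normal) in TET2WT, 3.31 and 3.19 in TET2M, and 3.36 and 3.82 in Mock, and so lay partly below the low-value level. The 6 points share lines and concentrations, and the correlations describe these arrays only.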

How the data were processed

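Total RNA of 6 A2058 cultures was measured on Affymetrix arrays, 1 for each line and glucose concentration, per the labels. The authors deposited log2 values for probe sets, and the submitters' processing notes name Affymetrix Expression Console. Which version, summary method and background correction were used is not given in the sources used here. Values ran from 1.56 to 13.78, from which the log base was taken, and the sorted columns differed by at most 0.12. The number of arrays limits the precision.

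There were 54675 probe sets, 62 of them controls. The platform annotation gave 1 gene for 41097, several for 1801 and none for 11777, and 41043 symbols were updated by gene ID. Probe sets with a mean below the 40th percentile (2.64) were left out, and each gene was represented by its set with the highest mean. Models were fitted with limma 3.58.1 in R 4.3.3 (package data.table, version 1.17.8), with terms for line and glucose, 2 residual and 3.97 prior degrees of freedom. Another fit let the glucose term of TET2WT differ (1 residual degree of freedom, prior 1.72). P-values were two-sided, with Benjamini-Hochberg adjustment over 14428 genes and a threshold of 0.05, and the fits were tested on simulated data. Python 3.11.15 and matplotlib 3.10.9 drew the figures. Promoters came from RefSeq on GRCh38.p14.

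The members, lists and tests were chosen with earlier results of these data known. All members are named, and for each list up to 4 genes that passed in a line comparison, or up to 2 with the largest glucose difference. The 5 genes most like the member with the widest range are named too. Alternatives changed the normalization, the filter, the probe set for a gene, the variance trend, the terms and the arrays used.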

Additional observations from a re-analysis of the deposited data

Results flagged for a closer look

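ID3 and SMAD6 had glucose differences, high minus normal, whose sign was not shared by the lines. For ID3 it was -0.43 in TET2WT, 0.17 in TET2M and -0.51 in Mock, so TET2M went the other way. For SMAD6 it was 0.33 in TET2WT, 0.05 in TET2M and -0.18 in Mock.

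ID2 and ID4 also changed sign between lines. The glucose difference of ID2 was 0.24 in TET2WT, 0.15 in TET2M and -0.16 in Mock, and that of ID4 was -0.44 in TET2WT, -0.03 in TET2M and 0.17 in Mock. Seen by concentration, TET2WT minus Mock was 0.20 at high and -0.20 at normal glucose for ID2, and -0.27 and 0.34 for ID4. ID1 was lower in TET2WT than in TET2M at high glucose, at -0.35, and higher at normal glucose, at 0.17.

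These were picked out because the 2 sides moved at least 0.1 in opposite directions. Each side rests on 1 pair of arrays, so the opposition between single pairs was not tested. The response of TET2WT set against the mean of the other 2 lines was tested in limma, and the adjusted p was 0.813 for ID3, 0.539 for SMAD6, 0.667 for ID2 and 0.531 for ID4.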

How the results depend on the processing

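The line and glucose terms of the fit paired the arrays, and the fits without those terms are given below. The labels carry no replicate numbers for a further block. Every combination had 1 array, so a gene's own data gave 2 residual degrees of freedom. The other 3.97, the prior ones, came from the spread over all genes. Values near the low-value level of 2.64, as in ID4 and the weaker SMAD6 and INHBA sets, have little signal over background. For the causes of the changes below, the cause was not tested, except that leaving out arrays removes residual degrees of freedom.

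For glucose, where 1 gene passed, the count was 5 with quantile normalization, 3 with cyclic loess, 2 without a filter, 5 with the stricter filter, 5 with the mean of probe sets, 573 with an intensity trend (2 members, ID1 and INHBA), and 0 without the line term or with TET2WT, TET2M or Mock left out. For TET2WT against Mock, where 608 passed, it was 1528 with the trend (5 members), 318 without the glucose term and 16 with TET2M left out (0 members). For TET2M against Mock, where 14 passed, it was 22 with the stricter filter (1 member, INHBA), 25 with the mean of probe sets, 149 with the trend (2 members), 7 without the glucose term and 0 with TET2WT left out. For TET2WT against TET2M, where 476 passed, it was 1249 with the trend (4 members), 267 without the glucose term and 0 with Mock left out. With 1 array left out, the counts were 0 for glucose, 0 to 16 for TET2WT against Mock (0 members), and 0 for each of TET2M against Mock and TET2WT against TET2M.

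Over 15 alternatives, TET2WT minus Mock ran between -1.32 and -0.94 for ID3, -1.37 and -0.32 for SMAD6 and -0.91 and -0.80 for INHBA, with no change of sign. The 15 are not all distinct, since leaving out 1 TET2M array or both gave the same fit. With all 6 arrays kept, ID3 passed in 8, SMAD6 in 7 and INHBA in 7. There SMAD6 did not pass with the mean of probe sets, and INHBA did not pass without the glucose term. Small differences changed sign. With the mean of probe sets, SMAD6 was -0.026 for glucose, ID4 was -0.083 in TET2WT against Mock, and the TET2WT-specific glucose response was 0.071 for SMAD3 and -0.31 for INHBA. That response of SMAD7 was 0.037 with quantile normalization and 0.0058 with cyclic loess. With TET2WT left out, the glucose difference was -0.0050 for ID2, 0.070 for ID4 and -0.065 for SMAD6. With 1 array left out, the glucose difference ranged from -0.0050 to 0.195 for ID2, from -0.24 to 0.070 for ID4 and from -0.065 to 0.19 for SMAD6. ID4 ranged from -0.22 to 0.29 in TET2WT against Mock, from -0.32 to 0.083 in TET2M against Mock and from -0.10 to 0.41 in TET2WT against TET2M. SMAD7 ranged from -0.23 to 0.023 and BAMBI from -0.18 to 0.020 in TET2M against Mock, and ID1 from -0.32 to 0.14 in TET2WT against TET2M.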

Other observations

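Across all members, the lowest of the 6 values fell on the TET2WT array at high glucose and the highest on the Mock array at normal glucose for 4 genes, ID1, ID3, INHBA and BAMBI. Of all 14428 genes tested, 666 (4.62%) had that order. The order was chosen after the values had been seen, and no test was made of it.

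Among the pathway genes, the largest glucose differences beside HTRA1 belonged to BHLHE40 at -0.51 ± 0.073 (limma adjusted p 0.0893), SNAI2, a repressor of epithelial genes, at -0.51 (0.17), and THBS1, a matrix protein that activates latent TGF-beta, at 0.49 (0.158). None passed. Among the receptors ACVRL1 gave -0.32 and ACVR2B -0.25, and among the signal-transducing SMADs SMAD4 gave 0.26 and SMAD2 -0.20, none of which passed.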
